A study of Mus musculus with 9 samples.

Results

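The genes described are the 2 interferon lambda ligand genes of the mouse, Ifnl2 and Ifnl3, and the 6 genes for the receptor chains of the 3 interferon types, Ifnlr1, Il10rb, Ifnar1, Ifnar2, Ifngr1 and Ifngr2. They were taken by gene name from a count table of 56748 genes, in which each name matched 1 row, and were chosen because of their levels in these same samples, so their values are given as a description and nothing is read from whether a test called them. Of the 56748 genes, 17276 passed a filter on low counts. All 8 genes passed it, Ifnl2 and Ifnl3 only through the treated groups. Total RNA was sequenced from primary pancreatic islets of wild-type (wt) C57bl/6 mice in 9 libraries, 3 per group. Control islets were untreated, and inflamed islets were exposed for 48 h to IL-1beta, TNF-alpha and IL-6. Particle islets received the same 3 cytokines with PD-G-MSNPs, which are polydopamine-coated mesoporous silica nanoparticles. None of the 3 groups received particles without cytokines. No interferon was among the added cytokines. The sources do not say whether the replicates of a group came from separate animals or islet preparations, so the spread between them may be partly technical.

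Interferons are secreted proteins that alert cells to infection and inflammation. Type I interferons (alpha and beta) signal through Ifnar1 and Ifnar2, which most cells carry. Type II interferon (gamma), made mainly by T and NK cells, signals through Ifngr1 and Ifngr2. Type III interferons (lambda) signal through Ifnlr1, found mostly on epithelial cells, paired with Il10rb, a chain shared with the receptors of interleukin-10 and interleukin-22. Receptors of types I and III act through Jak kinases on a complex that holds Stat2 and Irf9 and switches on antiviral genes. The type II receptor, through Jak1 and Jak2, switches on genes of antigen presentation and guanylate-binding proteins.

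Ifnl2 and Ifnl3 are near-identical copies, which bears on how their reads can be assigned. Their coding sequences, in GENCODE transcripts of build GRCm38, have 579 bases each and differ at 17 of them (97.1% identity). The longest identical run has 166 bases, and 4 identical runs of at least 50 bases cover 403 bases. The 90-base stretch below, coding bases 474 to 563 counted from the start codon, is shown because it holds 7 of the 17 differences and so can tell the copies apart. Capitals mark the bases that differ. The stretch crosses an exon junction, so its genome span, chr7:28508880-28509051 on the minus strand for Ifnl2 and chr7:28524131-28524303 on the plus strand for Ifnl3, includes an intron.
Ifnl2: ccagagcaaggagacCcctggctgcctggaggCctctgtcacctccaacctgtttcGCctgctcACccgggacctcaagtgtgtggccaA
Ifnl3: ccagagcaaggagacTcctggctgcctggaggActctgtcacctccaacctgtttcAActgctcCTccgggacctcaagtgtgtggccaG
A read that lies wholly within an identical run fits both genes, and the labels do not say how such reads were counted. The split between Ifnl2 and Ifnl3 is therefore uncertain, and their sum is given beside the values of each. If such reads were left out, the sum and both levels would be too low.

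Promoter windows from RefSeq (build GRCm38.p6, 250 bases before to 50 bases after the gene start) were matched for 7 of the 8 genes, all but Il10rb. On both strands, 4 motifs were searched: the core of the interferon-stimulated response element, the Stat site TTCNNNGAA, the NF-kappaB site, and the AP-1 site TGANTCA. Of all 32851 windows, 3.44%, 8.3%, 2.12% and 7.81% held them, in that order. Among the 7 windows, Ifngr2 held 1 NF-kappaB match, and Ifnar1 and Ifnar2 held 1 Stat match each. The windows of Ifnl2, Ifnl3, Ifnlr1 and Ifngr1 held none of the 4, and the Ifnl2 and Ifnl3 windows differed from each other at 3 of 300 bases. The stretches around the Ifngr2 match (66 to 75 bases before the start, chr16:91546959-91547018, plus strand) and the Ifnar2 match (206 to 214 bases before the start, chr16:91372544-91372602, plus strand) are shown because these 2 receptor genes had the largest differences from control. The Ifnb1 stretch (match 107 to 116 bases before the start, chr4:88522876-88522935, minus strand) is shown beside them as a gene long known for such a site. Capitals mark the match.
Ifngr2: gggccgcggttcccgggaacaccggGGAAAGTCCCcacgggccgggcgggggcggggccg
Ifnar2: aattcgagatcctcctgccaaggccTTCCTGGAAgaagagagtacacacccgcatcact
Ifnb1: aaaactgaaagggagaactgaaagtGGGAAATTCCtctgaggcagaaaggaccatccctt
The Ifnb1 window, too, held 0 matches of the interferon-stimulated response element core. A match describes the letters of the window only, and a window without a match may hold a site with other letters.

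Libraries held 17832949 to 55865759 counted reads. Levels are given as CPM (counts scaled to a fixed library total) with totals adjusted by TMM factors, and log2 fold changes come from a quasi-likelihood fit of edgeR across all tested genes. The islet label was checked against its markers: the insulin genes Ins1 and Ins2 and the glucagon gene Gcg were present in every group, and 9 of 10 beta cell markers were called lower in inflamed than in control islets. Among the 8 genes, 6 were called higher in inflamed than in control islets at an adjusted p under 0.05, against 20.7% of all genes tested, and 0 were called lower, against 19%. In particle against control islets 5 were called higher, against 11.4%, and 0 lower, against 5.92%. The libraries of 6 genes lay wholly above control in inflamed islets, against 28.3% of all genes, and those of 6 in particle islets, against 22.9%. Those of 0 genes lay wholly below control, against 28.5% in inflamed and 20.6% in particle islets. Those of 3 lay wholly below inflamed in particle islets, against 6.82%, and those of 0 above, against 8.87%. As the genes were chosen on these comparisons, nothing is read from these counts. The inflamed and particle comparisons with control share the control libraries.

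The lambda ligands were nearly absent from control islets and present in all 6 treated libraries. Ifnl2 (ENSMUSG00000059128, GRCm39 chromosome 7, 28208261 to 28209880) had 0 reads in each of the 3 control libraries. It had 700, 317 and 831 reads in the inflamed libraries and 2016, 1308 and 383 reads in the particle libraries. In CPM these were 32.55, 14.53 and 15.43 (20.8 ± 10.2, SD, n = 3) and 99.2, 52.6 and 16.7 (56.2 ± 41.4). Every treated library was thus above every control library. Against the floor that 3 reads over the control group set (0.0406 CPM), Ifnl2 was at least 513-fold higher in inflamed and at least 1380-fold higher in particle islets. The lowest inflamed library alone was at least 358-fold and the lowest particle library at least 411-fold above that floor. These bounds cover counting error only.

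Ifnl3 (ENSMUSG00000060747, chromosome 7, 28222261 to 28223747), the second lambda ligand, starts 12380 bases beyond the end of Ifnl2. It had 2, 2 and 0 reads in the control libraries, 1139, 469 and 1189 in the inflamed libraries, and 2512, 1808 and 594 in the particle libraries. In CPM the group means were 0.0582 ± 0.0506, 32.2 ± 18.0 and 74.1 ± 48.9 (SD, n = 3). Every treated library was again above every control library. Against the level of the pooled control reads, the mean CPM of Ifnl3 was 594-fold (95% interval 232 to 2180) higher in inflamed and 1370-fold (534 to 5020) higher in particle islets. These intervals cover the counting error of the 4 control reads only. The Ifnl3 to Ifnl2 read ratio stayed between 1.25 and 1.63 in the 6 treated libraries, and by CPM both genes put these libraries in the same order.

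Between the treated groups the lambda genes overlapped. Ifnl2 and Ifnl3 together reached 85.5, 36.0 and 37.5 CPM in inflamed and 223, 125 and 42.6 CPM in particle islets. Particle replicates 1 and 2 were above all inflamed libraries, and particle replicate 3 lay inside the inflamed range. The fitted log2 difference, particle against inflamed, was 1.43 (SE 0.60) for Ifnl2 and 1.20 (SE 0.53) for Ifnl3. Without particle replicate 1 these were 0.74 and 0.62, and without inflamed replicate 1 they were 1.91 and 1.77, so single libraries set much of their size. In this comparison 0 of 17276 genes were called in either direction by edgeR. At an unadjusted p under 0.05, 2603 genes differed. DESeq2 called 487 genes higher and 296 lower. Without particle replicate 3, 636 genes were called higher and 306 lower.

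**Figure D1:**
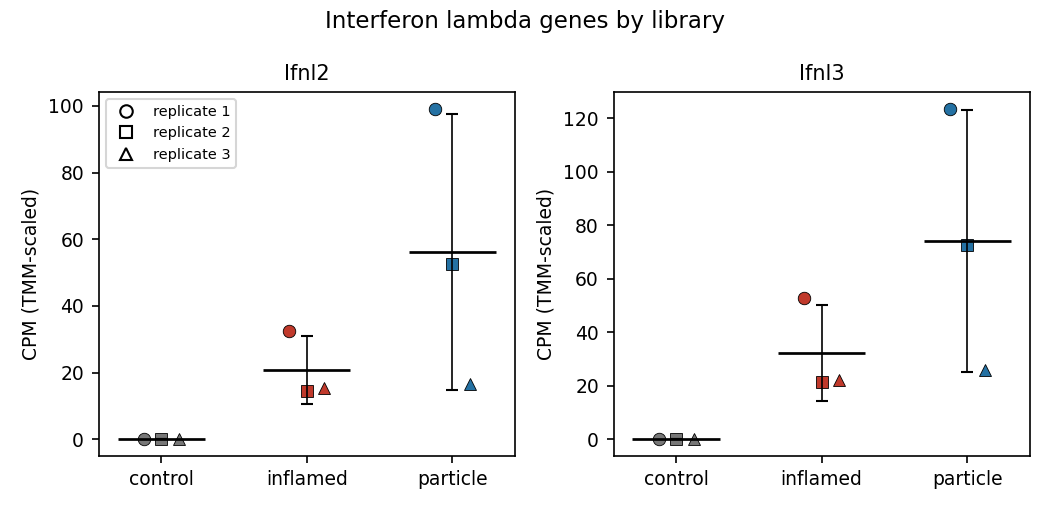
Level of Ifnl2 (left) and Ifnl3 (right) in CPM on a linear axis, in control, inflamed and particle islets. Each symbol is 1 library with its shape giving the replicate number, and bars give the mean and SD over 3 libraries. Control libraries lie at or near 0, and particle replicate 1 is the highest library in both panels at 99.2 and 124 CPM.

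Other genes overlap the lambda locus. Both lambda genes lie within the span of Samd4b, which had 3349 to 11041 reads per library and a mean CPM of 194 ± 21.8, 266 ± 53.9 and 179 ± 17.4 in control, inflamed and particle islets. Thus Samd4b was plentiful in the control libraries, where Ifnl2 had 0 reads. The pseudogene Gm53047, between the lambda genes, had 8 reads in all 9 libraries together.

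The other interferon genes were at or near 0 reads, so the lambda genes made up nearly all interferon reads counted in treated islets. Ifng, the type II ligand, had 0 reads in all 9 libraries, which allows a level of up to 0.0125 CPM (3 reads over all libraries). Ifnb1, the type I ligand interferon beta, had 8 reads in particle replicate 1 and 0 in the other 8 libraries. Among the other 17 interferon genes listed, 13 had 0 reads in every library and 4 had 45 reads in all. Of these, Ifnab had 33, with 6, 3 and 22 in the particle libraries and 2 in inflamed replicate 1. None of these genes passed the count filter. How reads that fit several genes were counted is not given. Reads shared between some of these 17 genes, if left out, would not appear in their counts.

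Markers of lymphocytes and NK cells, the usual source of interferon gamma, summed to 7.31 to 34.5 CPM over 14 genes in control islets, to 2.02 to 6.84 CPM in inflamed islets and to 4.13 to 8.02 CPM in particle islets. Cd3e, Ncr1, Nkg7, Prf1 and Ms4a1 were at 0 in every library. The 6 dendritic cell markers summed to 0.289 to 1.52, 5.66 to 7.72 and 1.25 to 6.54 CPM, with Siglech and Xcr1 at 0 throughout. The 10 macrophage markers summed to 304 to 373, 957 to 1030 and 315 to 473 CPM. Of 9 macrophage markers tested, 7 were called higher and 1 lower in inflamed against control islets, beside 20.7% and 19% of all genes. The part of these cells in the lambda and receptor values was not tested. In RNA of whole islets, a change in the number of cells of a type and a change of RNA per cell cannot be told apart.

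Ifnlr1 (ENSMUSG00000062157, chromosome 4, 135413598 to 135435492), the chain that gives the lambda receptor its specificity, was the scarcest receptor transcript. It had 1.65, 0.966 and 2.01 CPM in control, 3.26, 5.36 and 1.69 CPM in inflamed, and 2.95, 1.77 and 2.96 CPM in particle islets. Inflamed replicate 3 lay inside the control range, so the groups overlapped in all 3 comparisons. The log2 difference was 1.14 (SE 0.51) for inflamed against control, 0.73 (SE 0.51) for particle against control and -0.42 (SE 0.51) for particle against inflamed. Without inflamed replicate 2 the first was 0.66 and the last turned to 0.06, and without control replicate 2 particle against control was 0.45. These libraries held only 21 to 117 Ifnlr1 reads each.

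Il10rb (ENSMUSG00000022969, chromosome 16, 91203052 to 91222722), the partner chain of Ifnlr1, was at 11.6, 12.1 and 10.7 CPM in control, 25.5, 18.7 and 30.8 CPM in inflamed, and 17.8, 13.7 and 16.3 CPM in particle islets. The 3 groups did not overlap, with inflamed highest and particle between. The log2 difference was 1.13 (SE 0.23) for inflamed against control and -0.65 (SE 0.22) for particle against inflamed. Particle against control, where every particle library was above every control library, gave 0.47 (SE 0.23). Transcripts of both chains of the lambda receptor were thus present in every library, with Il10rb the more abundant. The Il10rb to Ifnlr1 ratio of FPKM (reads per kilobase of gene, scaled by library) was 9.10 ± 4.09 in control, 10.8 ± 8.31 in inflamed and 7.05 ± 1.29 in particle islets. Whether the same cells held both transcripts was not tested.

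Epithelial and duct markers, beside which Ifnlr1 is read because lambda receptors are mostly epithelial, summed to 974 to 1100 CPM over 10 genes in control islets, to 1380 to 2600 CPM in inflamed islets and to 1560 to 1710 CPM in particle islets. Of 9 tested, 4 were called higher and 1 lower in inflamed against control islets, beside 20.7% and 19% of all genes. Their part in the Ifnlr1 values was not tested.

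The 2 type I receptor chains differed in how far they departed from control. Ifnar1 (ENSMUSG00000022967, chromosome 16, 91282126 to 91304329), a chain that binds Tyk2, was at 18.8, 25.1 and 20.9 CPM in control, 29.99, 37.96 and 23.51 CPM in inflamed, and 22.1, 21.3 and 24.9 CPM in particle islets. All 3 pairs of groups overlapped. The log2 difference was 0.50 (SE 0.22) for inflamed against control, -0.42 (SE 0.22) for particle against inflamed and 0.08 (SE 0.22) for particle against control. Without inflamed replicate 2 the first was 0.30 and the second -0.23, and without control replicate 1 the last was -0.07.

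Ifnar2 (ENSMUSG00000022971, chromosome 16, 91169671 to 91202477), the chain that binds Jak1, was at 22.8, 15.8 and 21.8 CPM in control, 67.4, 59.7 and 67.8 CPM in inflamed, and 54.5, 35.4 and 54.4 CPM in particle islets. The groups did not overlap, and particle replicate 2 was the lowest treated library. Inflamed islets had 3.22-fold the control mean, a log2 difference of 1.69 (SE 0.23). Particle against control gave 1.26 (SE 0.22) and particle against inflamed -0.43 (SE 0.22), which was -0.25 without particle replicate 2. The Ifnar2 to Ifnar1 ratio of FPKM was 1.72 ± 0.537, 3.99 ± 1.17 and 3.76 ± 0.735 in control, inflamed and particle islets (SD, n = 3).

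Ifngr1 (ENSMUSG00000020009, chromosome 10, 19467697 to 19485977), the ligand-binding chain of the interferon gamma receptor, was at 14.9, 18.0 and 16.5 CPM in control, 35.3, 29.6 and 32.6 CPM in inflamed, and 40.5, 26.9 and 43.5 CPM in particle islets. Both treated groups lay above control and overlapped with each other. The log2 difference was 0.98 (SE 0.21) for inflamed against control, 1.17 (SE 0.21) for particle against control and 0.19 (SE 0.21) for particle against inflamed. The last was 0.06 without particle replicate 3 and 0.37 without particle replicate 2.

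Ifngr2 (ENSMUSG00000022965, chromosome 16, 91343960 to 91362511), the signalling chain of that receptor, had the largest difference from control among the 6 receptor genes. It was at 13.2, 12.8 and 11.2 CPM in control, 124, 117 and 113 CPM in inflamed, and 109, 58.7 and 111 CPM in particle islets. Inflamed islets had 9.51-fold the control mean, a log2 difference of 3.25 (SE 0.26), and particle against control gave 2.91 (SE 0.25). Every particle library was below every inflamed library, with a log2 difference of -0.34 (SE 0.23) that was -0.10 without particle replicate 2.

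**Figure D2:**
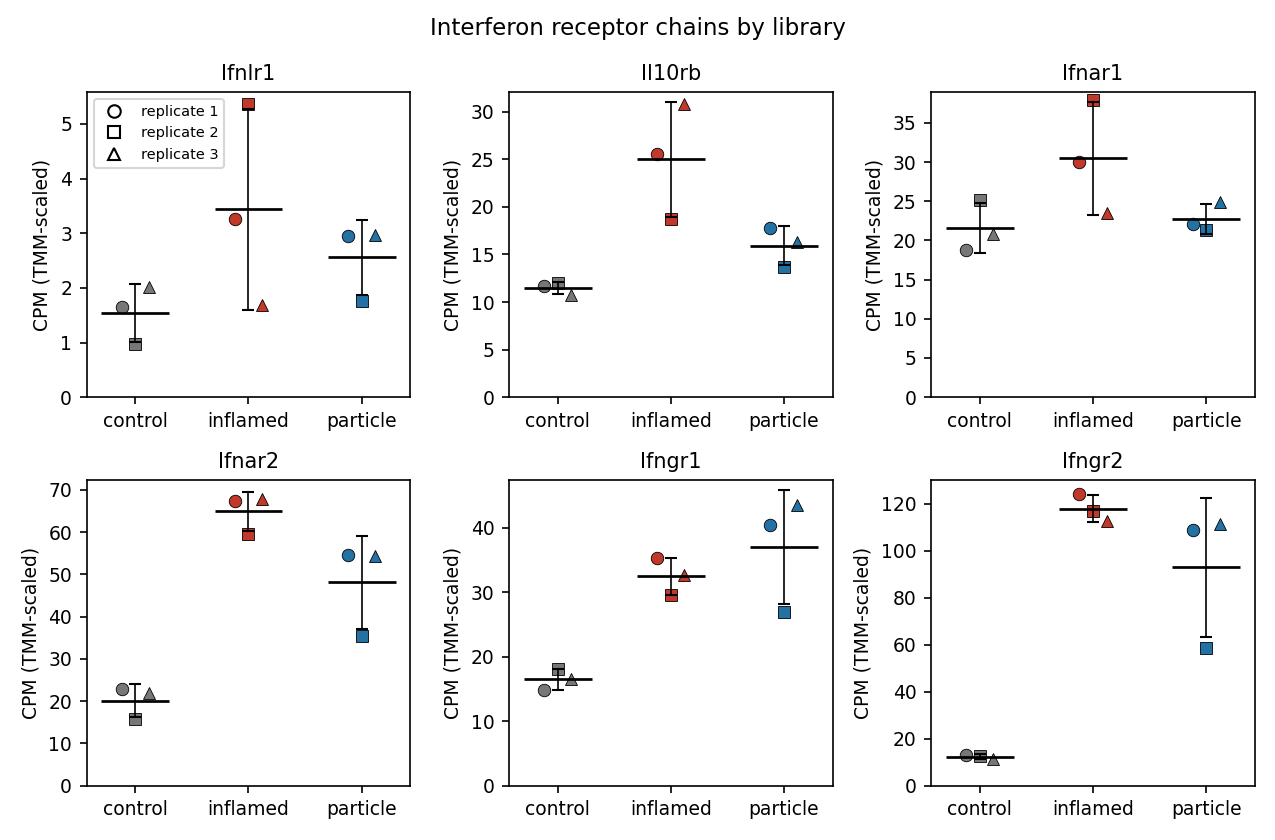
Level of the 6 receptor chain genes in CPM on linear axes from 0, each panel with its own scale. Each symbol is 1 library with its shape giving the replicate number, and bars give the mean and SD over 3 libraries per group. Ifngr2 goes from 11.2 to 13.2 CPM in control to 113 to 124 CPM in inflamed islets, while the Ifnar1 and Ifnlr1 groups overlap.

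The order of the 2 interferon gamma receptor chains differed between control and treated islets. Per length, control islets had 5.85 ± 0.652 FPKM of Ifngr1 and 3.32 ± 0.273 FPKM of Ifngr2, and inflamed islets had 11.1 ± 0.858 and 30.5 ± 1.13 FPKM. The Ifngr2 to Ifngr1 ratio of FPKM was 0.670, 0.536 and 0.513 in control, 2.66, 2.98 and 2.61 in inflamed, and 2.03, 1.65 and 1.93 in particle islets. Ifngr1 was thus the more abundant chain in all control libraries and Ifngr2 in all treated ones, and the ratios of the 3 groups did not overlap.

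**Figure D3:**
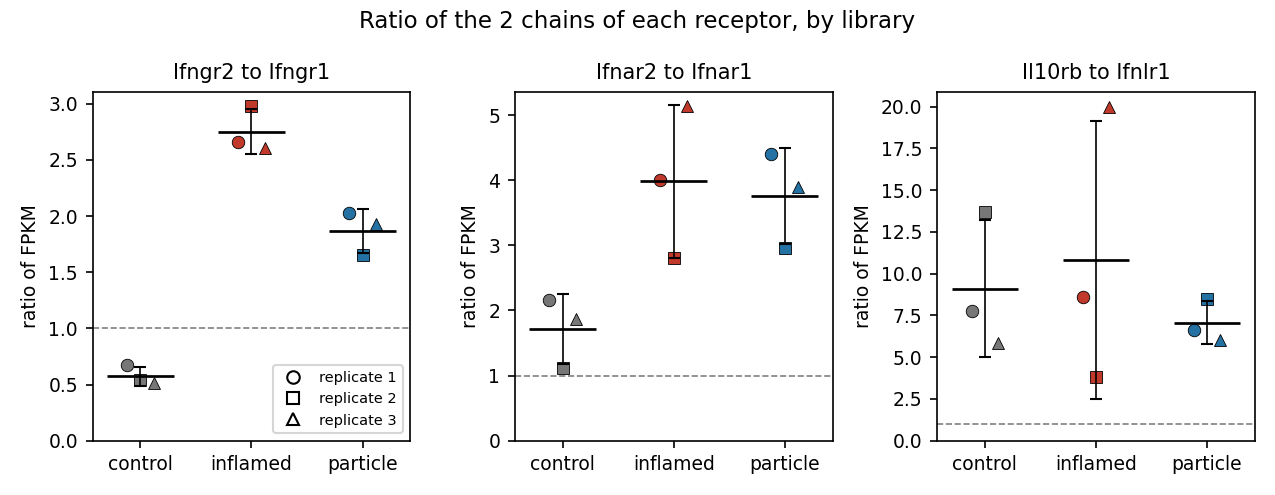
Ratio of FPKM of the 2 chains of each receptor, by library, on linear axes from 0. The dashed line marks equal FPKM, symbols are libraries and bars give the mean and SD over 3 libraries. The Ifngr2 to Ifngr1 ratio lies below 1 in the control libraries and above 1 in the treated ones, while the Il10rb to Ifnlr1 groups overlap.

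In control islets the receptor chains ranked by FPKM as Ifnar2 (6.10 ± 1.08), Ifngr1 (5.85 ± 0.652), Ifnar1 (3.68 ± 0.604), Ifngr2 (3.32 ± 0.273), Il10rb (3.04 ± 0.202) and Ifnlr1 (0.372 ± 0.125). The order of Ifnar2 and Ifngr1 changed between control libraries, as did that of Ifnar1 and Ifngr2. Both Ifnar1 and Ifngr2 were above Il10rb in every control library. In inflamed islets Ifnl3 (53.7 ± 29.2 FPKM), Ifngr2 (30.5 ± 1.13) and Ifnl2 (28.8 ± 13.6) lay within the wide spread of the lambda genes, followed by Ifnar2 (19.0 ± 1.26), Ifngr1 (11.1 ± 0.858), Il10rb (6.40 ± 1.56), Ifnar1 (5.01 ± 1.20) and Ifnlr1 (0.802 ± 0.434). In every inflamed library Ifnl3 was above Ifngr2, while the order of Ifngr2 and Ifnl2, and of Il10rb and Ifnar1, changed between libraries. In particle islets Ifnl3 was at 124 ± 83.0 and Ifnl2 at 77.7 ± 58.2 FPKM, then Ifngr2 at 23.8 ± 7.72, Ifnar2 at 14.0 ± 3.28, Ifngr1 at 12.5 ± 3.03, Il10rb at 4.04 ± 0.568, Ifnar1 at 3.70 ± 0.292 and Ifnlr1 at 0.592 ± 0.162. Ifngr2 lay within the wide spread of Ifnl2, below it in particle replicates 1 and 2 and above it in replicate 3 (28.3 against 22.8 FPKM). Ifnar2 and Ifngr1, and Il10rb and Ifnar1, lay within each other's spread there. Within libraries, though, Ifnar2 was above Ifngr1 in every particle library. Il10rb was also above Ifnar1 in each, in replicate 2 only by 3.45 against 3.44 FPKM. The deposited gene length is 582 bases for Ifnl3 and 702 for Ifnl2, which affects their FPKM relative to each other. Reads that fit both lambda genes, if left out, would lower the FPKM of both relative to the receptor chains.

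A group of 4 receptor genes adjoins on chromosome 16, in the order Ifnar2, Il10rb, Ifnar1 and Ifngr2 over 192.8 kb, all on the plus strand. Their log2 differences from control in inflamed islets ran from 0.50 for Ifnar1 to 3.25 for Ifngr2. Il10rb starts 574 bases beyond the end of Ifnar2, so reads that run past the annotated end of Ifnar2 could be counted with Il10rb. The readthrough gene Gm21970, which overlaps both, had 0 reads in all libraries. How reads that fit several genes were counted is not given, so this 0 does not tell whether such reads occurred. Of 14 listed neighbours, 12 were tested, and 3 were called higher and 0 lower, with a median log2 difference of 0.51. That share is near the 20.7% of all genes called higher, so it is no result about the locus. The 3 were Mrps6 (1.84, SE 0.29, adjusted p = 0.00090), a mitochondrial ribosome subunit, Runx1 (2.56, SE 0.48, adjusted p = 0.0023), a transcription factor of blood cells, and Rcan1 (0.75, SE 0.18, adjusted p = 0.0084), a calcineurin inhibitor. Tmem50b, the neighbour 8879 bases beyond Ifngr2, had a log2 difference of -0.71 (SE 0.27), not called.

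**Figure D4:**
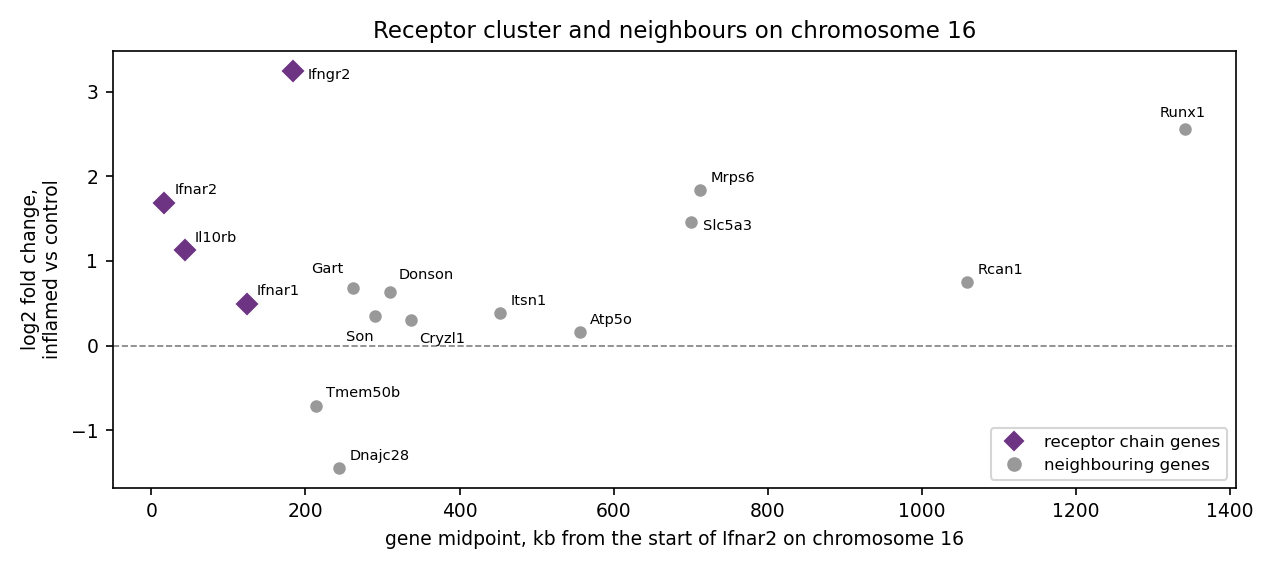
Fitted log2 fold change of inflamed against control islets for the tested genes of the chromosome 16 cluster, by distance of the gene's midpoint in kb from the start of Ifnar2. Diamonds are the 4 receptor genes and circles the 12 tested neighbours. Ifngr2 is highest at 3.25, and the neighbour nearest to it, Tmem50b, is at -0.71.

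The rest of the pathway and the chromosome 16 neighbours were read from 8 lists with 120 genes, of which 91 were tested. The neighbours made up 14 of the 120 and 12 of the 91. They gave 3 of the 69 and 4 of the 63 higher calls below. All lists were written with earlier results of these data known, so their counts are given as a description. In inflamed against control islets 69 rose and 0 fell, beside 20.7% and 19% of all genes. In particle against control islets 63 rose and 0 fell, beside 11.4% and 5.92%. In particle against inflamed islets 0 of the 91 were called by edgeR. There 16 had an unadjusted p under 0.05, beside 2603 of all 17276 genes, a similar share, so nothing is read from it.

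Below the receptors, 5 of 7 kinase, Stat and Irf9 genes rose in inflamed islets (edgeR, adjusted p), beside 20.7% of all genes. Jak2, the kinase bound to Ifngr2, had 17.8, 16.7 and 16.4 CPM in control and 106, 94.9 and 91.3 CPM in inflamed islets, and a log2 difference of 2.52 (SE 0.26, adjusted p = 7.3e-05). Irf9, the DNA-binding partner of Stat2, rose by 2.83 (SE 0.30, adjusted p = 7.5e-05), and Stat2 and Stat3 rose too. Jak1 (0.56) and Tyk2 (-0.42), the kinases of the type I and lambda receptors, were not called.

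Of 9 feedback inhibitors, 4 rose in inflamed islets, beside 20.7% of all genes, and 5 were not called. Socs1, which blocks Jak kinases, rose by 5.73 (SE 0.32, adjusted p = 1.2e-06), with 2.35 ± 0.569 CPM in control, 125 ± 39.0 in inflamed and 81.2 ± 8.19 in particle islets. Usp18, which holds back type I signalling at Ifnar2, rose from 18.1 ± 3.76 to 145 ± 25.7 CPM (adjusted p = 5.5e-05), and the phosphatase Ptpn2 by 1.46 (SE 0.25, adjusted p = 0.0014). Socs3 was the fourth. The edgeR fit called 3 of these 9 higher in particle against control islets, beside 11.4% of all genes.

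Of 22 tested sensors, adaptors and factors upstream of interferon genes, 19 rose and 0 fell in inflamed islets. Among all genes, 20.7% rose and 19% fell. Irf7, a driver of interferon gene transcription, rose by 5.98 (SE 0.32, adjusted p = 1.2e-06), from 4.95 ± 1.10 to 313 ± 82.1 CPM. Zbp1, a nucleic acid sensor, rose by 10.56 (SE 0.86, adjusted p = 2.0e-05) and Irf8 by 3.49 (SE 0.32, adjusted p = 3.2e-05). Mavs, Irf3 and Tlr7 were the 3 not called. The count of higher calls was 15 in particle against control islets, beside 11.4% of all genes.

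The target lists, written with earlier results of these data known, rose as a whole. All 21 antiviral targets and all 16 interferon gamma targets were called higher in inflamed and in particle islets against control. The shares of all genes called higher were 20.7% and 11.4%. Median log2 differences in inflamed islets were 5.48 for the antiviral and 6.04 for the interferon gamma targets. Rsad2 was at 1.84 ± 0.201, 148 ± 17.2 and 181 ± 38.6 CPM in control, inflamed and particle islets and rose by 6.33 (SE 0.26, adjusted p = 4.1e-07) in inflamed islets. Xaf1 rose by 6.93 (SE 0.34, adjusted p = 7.6e-07) and Oas1a, which makes the activator of RNase L, by 5.48 (SE 0.31, adjusted p = 1.2e-06). Cxcl9, a T cell attractant, rose by 13.20 (SE 0.72, adjusted p = 1.2e-06), from 0.101 ± 0.0886 to 945 ± 266 CPM. The guanylate-binding proteins Gbp2 and Gbp3 rose by 10.84 (SE 0.62) and 9.88 (SE 0.57), adjusted p = 1.4e-06 for each, in libraries with 0 reads of Ifng. Several genes of each list respond to more than 1 interferon type.

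The relatives of this cytokine family were mostly too low to test: 4 of 11 listed passed the filter. Il20rb, a receptor chain for interleukins 19, 20 and 24, rose by 2.31 (SE 0.50, adjusted p = 0.0043). Il22ra2, a soluble binder of interleukin-22 (5.04, SE 1.87), and Il10ra, the other chain of the interleukin-10 receptor (0.78, SE 0.59), were not called. Il22ra2 was near the floor, with 0, 0 and 1 reads in the control libraries and 18, 21 and 0 in the inflamed libraries. The inflamed libraries of Il10ra ran from 1.36 to 7.75 CPM, on both sides of its control libraries.

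**Figure D5:**
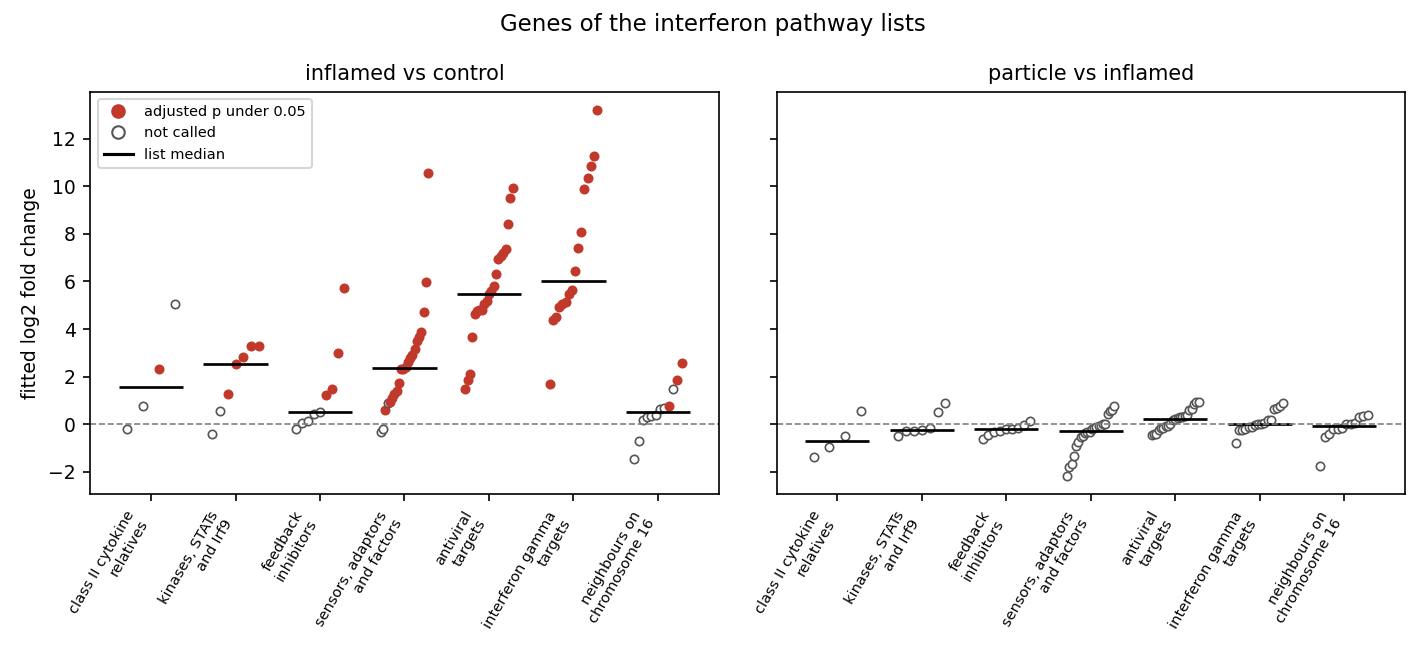
Fitted log2 fold changes of the tested genes of 7 lists, including the chromosome 16 neighbours, inflamed against control (left) and particle against inflamed (right). Filled circles were called by edgeR at an adjusted p under 0.05, open circles were not, and black lines are list medians. All antiviral and interferon gamma targets are filled on the left, and no circle is filled on the right.

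The genes most like Ifnl2 across the 9 libraries, by the root mean square difference of log2 CPM (prior count 2) centred on each gene's mean, were, of 14171 candidates, Apol9b (0.656), H2-Q7 (0.709), Ifi44 (0.737), Ifit3 (0.740) and Apol9a (0.757). Apol9b was at 0.0413, 0 and 0 CPM in control, 19.7, 8.25 and 30.6 in inflamed and 53.7, 31.8 and 22.1 in particle islets. All 5 were near their lowest in control libraries and highest in particle replicate 1. The genes most like Ifnlr1 were Mak (0.255), Camk1d (0.267), Pprc1 (0.280), Noc2l (0.281) and Clcn7 (0.284). All 5 were highest in inflamed replicate 2, the library in which Ifnlr1 was highest too. Likeness over 9 libraries in 3 groups mostly reflects the groups, and these genes share libraries and depth.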

How the data were processed

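Members and gene lists were chosen with earlier results of these data known. The deposited counts are unnormalized read counts for each gene, and the deposited FPKM table covers the same genes and libraries. The submitters used HTSeq, DESeq2 and build GRCm39, per the submitters' processing notes, with versions, strand setting and handling of reads that fit several genes not given in the sources used here. Groups were read from sample titles. The control columns of the deposited tables carry the name islet and were matched as the set of 3 left over.

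Counts were tested with edgeR 4.0.16 (R 4.3.3): filterByExpr (smallest count 10), TMM factors, a robust quasi-likelihood fit to all 9 libraries, and Benjamini-Hochberg adjustment over 17276 genes, with calls at an adjusted p under 0.05. The SE of a log2 difference is its size divided by the square root of the F statistic. CPM, floors (3 counts) and 95% counting intervals cover counting error only. Replicates of a group differed by chi-square statistics per degree of freedom of 44.2 to 209, so no library was merged. The procedure was tested on simulated counts drawn with the same spread setting for every gene. That test does not show how the fit behaves at the spread of these libraries.

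The 8 genes, Ifng, Ifnb1, up to 3 genes of each pathway list with the smallest adjusted p in inflamed against control, and the 5 genes nearest to Ifnl2 and to Ifnlr1 are named. A gene that the rule also names is not reported here. Stat2, Stat3, Jak1, Tyk2, Socs3, Mavs, Irf3, Tlr7, Tmem50b, Ifnab and the overlapping genes were named after their values were seen. In inflamed against control islets, endothelial markers were called lower in 5 of 8 genes, and alpha, delta and PP cell markers in 4 of 6. Among all genes, 19% were called lower and 20.7% higher in that comparison. Of 9 acinar markers 0 were called by edgeR, of 8 stellate markers 1 fell, and of 3 tested neutrophil markers 1 rose. The acinar markers summed to 22.5 to 1440 CPM in control, 27.9 to 2670 CPM in inflamed and 5.96 to 3310 CPM in particle libraries. With that spread within groups, 0 calls do not show that acinar content was alike. Sequences are from GENCODE and RefSeq on build GRCm38, an earlier build than that of the counts. Alternatives were other scalings and filters, DESeq2 1.42.0, limma 3.58.1 (voom, and log2(FPKM + 1) or log2(FPKM + 0.1)), non-robust dispersions, fits of the compared groups only, a replicate block, and leaving out each library in turn. Figures were drawn with matplotlib 3.10.9.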

Additional observations from a re-analysis of the deposited data

How the results depend on the processing

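The log2 differences of the 8 genes in 3 comparisons kept their direction under 20 alternatives, except Ifnlr1 in particle against inflamed without inflamed replicate 2 and Ifnar1 in particle against control without control replicate 1. Of 480 such values 456 stayed within the spread between replicates and 24 did not, the latter including the lambda genes on log2(FPKM + 1), where the pseudocount compresses them. The cause of every other shift was not tested. Scaling by library totals without TMM factors moved the median of all genes to 0.22 in inflamed against control, to 0.13 in particle against inflamed and to 0.32 in particle against control.

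Over all genes, inflamed against control gave 3568 higher and 3274 lower calls, and 2278 to 3786 higher and 2401 to 3588 lower without 1 library. For particle against inflamed, edgeR called 0 in each direction, library totals gave 1 higher, no count filter 120 higher and 101 lower, DESeq2 487 and 296, limma-voom 1 and 7, log2(FPKM + 1) 10 lower, and log2(FPKM + 0.1) 5 and 6. Leaving out 1 library gave 0 to 636 higher and 0 to 306 lower, the largest without particle replicate 3. Particle against control gave 1961 higher and 1022 lower, and 3193 and 597 on library totals. DESeq2 gave 1940 lower, log2(FPKM + 1) 2022 lower and log2(FPKM + 0.1) 1622 lower. Leaving out 1 library gave 887 to 2424 higher and 224 to 2121 lower.

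Among the listed pathway and neighbour genes, inflamed against control went from 0 to 1 lower without a count filter, with DESeq2 and with only the compared groups. The same change came with the replicate block and on both FPKM scales, and the count was 0 to 1 without 1 library. For particle against inflamed, 1 was lower without a count filter, with limma-voom and on both FPKM scales, and 2 with DESeq2, with 0 to 1 higher and 0 to 2 lower without 1 library. For particle against control, 1 was lower with only the compared groups and on log2(FPKM + 1), and 0 to 1 without 1 library.

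Deviations of same-numbered libraries from their group means correlated at -0.184 to 0.206 across genes, and those of other pairs at -0.249 to 0.245. With 3 libraries per group these values cannot tell whether the replicate numbers pair the libraries. The replicate block gave 3152 higher and 2964 lower calls in inflamed against control, 0 and 0 in particle against inflamed, and 1628 and 970 in particle against control.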

Other observations

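The markers of beta cells and of alpha, delta and PP cells give the setting of these values. Beta cell markers summed to 342000 to 360000 CPM in control, 124000 to 229000 CPM in inflamed and 87600 to 240000 CPM in particle islets. Alpha, delta and PP cell markers summed to 8930 to 32100, 216 to 943 and 185 to 10000 CPM, in that order. In inflamed against control islets 9 of 10 beta cell markers were called lower (edgeR), beside 19% of all genes. In particle against inflamed islets Pdx1, Slc2a2 and Slc30a8 lay wholly above, against 8.87% of all genes, though none of the 10 was called. The macrophage markers went the other way in that comparison: Cd68, Csf1r, C1qa, C1qb, C1qc, Lyz2 and Itgam lay wholly below inflamed, against 6.82% of all genes. The macrophage list had a median log2 difference of -1.44, and 0 of 9 tested were called. Ifnar2, Il10rb and Ifngr2 were the 3 receptor genes that also lay wholly below inflamed in particle islets. These genes were named after their values were seen, and the part of macrophage content in the receptor values was not tested.

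Irf5, an interferon regulatory factor of myeloid cells chosen after its values were seen, was at 3.76, 3.73 and 3.19 CPM in control, 21.9, 23.6 and 28.3 in inflamed, and 8.91, 5.35 and 6.89 in particle islets. Its log2 difference of particle against inflamed was -1.80 (SE 0.25, edgeR adjusted p = 0.064), with no overlap between the groups.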
